A study of Mus musculus with 32 samples.

Results

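The nuclear genes that encode subunits of respiratory complexes II to V were followed across 4 tissues of obese mice given vehicle or auranofin. Members were the protein-coding genes whose symbols are Sdha, Sdhb, Sdhc, Sdhd or Cyc1, or begin with Uqcr, with Cox4 to Cox8 or with Atp5, which gave 49 of the 54532 genes measured. Complex II had 4 members, complex III had 9, complex IV had 18 and complex V had 18. Cox7b2, Cox8c and a second gene listed under the symbol Atp5o were at 0 in all 32 libraries. The other 46 reached the mean of 0.5 FPKM (fragments scaled by gene length and library size) required for testing in every comparison but liver treatment, where Cox4i2, Cox6a2 and Cox8b fell short. The symbols also bring in Cox7a2l, a factor of respiratory supercomplexes rather than of the catalytic enzyme.

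All mice were wild-type C57/Bl6j and ate a diet with 60% fat for 12 weeks, so no lean animal is among the controls. They then received vehicle (V) or auranofin (AF), a gold-containing inhibitor of thioredoxin reductase, at 1 mg/kg 3 times a week for 4 weeks. Total RNA was sequenced from inguinal white fat (iWAT, subcutaneous), epididymal white fat (eWAT, visceral), liver and brown fat (BAT), with 4 vehicle and 4 auranofin libraries in each tissue. Nothing in the labels says that libraries came from separate animals, so p-values measure the spread between these libraries, which may be technical. Reads in genes numbered 13606756 to 19205640 per library. The 49 members took 1.35% to 1.54% of them in iWAT vehicle libraries, 0.827% to 1.56% in iWAT auranofin libraries and 3.09% to 4.70% in BAT. The tissues carried their defining markers: the median over libraries was 45725 FPKM for Alb in liver, 2828 FPKM for Adipoq in iWAT and 2791 FPKM for Ucp1 in BAT. Adipoq in eWAT ran from 596 to 2944 FPKM. Single libraries held message of other tissue. Alb was at 217 FPKM in iWAT vehicle library 1, where the iWAT median was 18.2. It was at 286 and 113 FPKM in eWAT auranofin libraries 2 and 3, where the eWAT median was 17.1. Because these are pieces of tissue, fewer cells of a type and less RNA per cell cannot be told apart.

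As background, complex II (succinate dehydrogenase) takes electrons from succinate to ubiquinone, complex III (the cytochrome bc1 complex) takes them on to cytochrome c, and complex IV (cytochrome c oxidase) gives them to oxygen. Complexes III and IV pump protons, and complex V (ATP synthase) makes ATP from their return. Several complex IV subunits come as a widely expressed form and a form known from heart, muscle and brown fat, and subunit c of complex V is encoded by Atp5g1, Atp5g2 and Atp5g3, which differ in their import sequences. In brown fat the proton gradient is spent as heat through Ucp1, and the tissue is known for abundant respiratory complexes beside little ATP synthase.

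On the deposited scale each complex was highest in BAT and lowest in eWAT among the vehicle libraries. The levels here and below are on that scale. The member median of liver against white fat changed sign with a rescaling described further on. For complex II, the mean log2(FPKM + 1) over its 4 genes was 8.55 ± 0.16 in BAT, 7.10 ± 0.10 in liver, 6.56 ± 0.09 in iWAT and 5.68 ± 0.26 in eWAT (SD, n = 4), and no 2 tissues overlapped. Complex III followed the same order of means, at 9.08 ± 0.28, 7.70 ± 0.13, 7.39 ± 0.11 and 6.05 ± 0.37, with the highest iWAT and the lowest liver library both at 7.52. Complex V ran from 7.05 ± 0.21 in BAT and 6.62 ± 0.09 in liver to 6.37 ± 0.11 in iWAT and 5.27 ± 0.29 in eWAT. Its BAT and liver levels lay closer together than those of complexes II and III, a description with no test. Complex IV differed in order, with iWAT at 6.48 ± 0.20 above liver at 5.64 ± 0.09, and liver overlapped eWAT, which ranged from 4.82 to 5.66. The liver average of complex IV holds genes near 0 there: Cox8b, Cox6a2, Cox4i2 and Cox6b2 had vehicle means of 0.0607, 0.218, 0.234 and 0.392 FPKM.

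**Figure D1:**
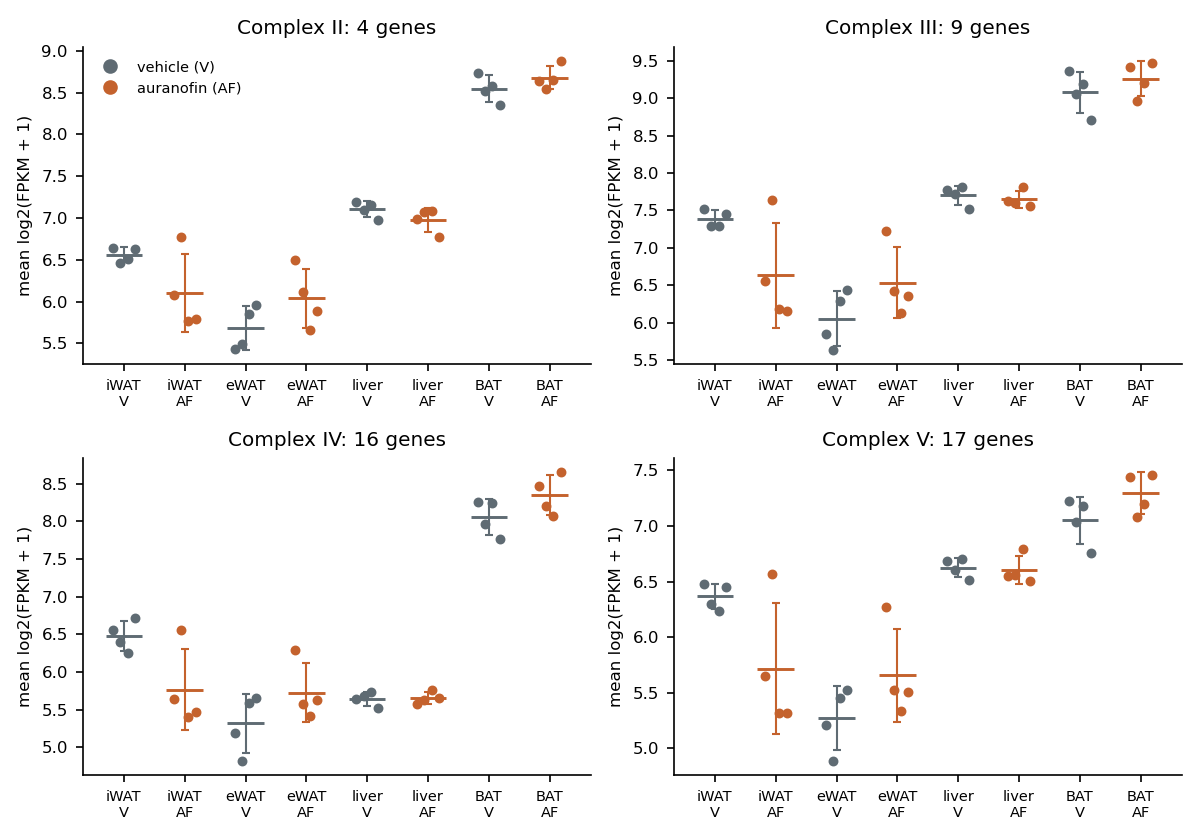
Mean log2(FPKM + 1) over the tested genes of each complex (y axis) in each tissue and treatment (x axis). Points are libraries, the wide line is the mean of 4 and the bars are the SD. The BAT vehicle libraries lie above the vehicle libraries of every other tissue in all 4 panels. Among iWAT auranofin libraries 1 sits within the vehicle range for complex IV and above it for complexes II, III and V, while the other 3 sit below it.

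BAT carried more message for nearly every subunit than white fat did. In the vehicle libraries 41 of the 46 tested members were higher in BAT than in the mean of iWAT and eWAT and 1 was lower (limma, Benjamini-Hochberg adjusted p under 0.05). Of all 14339 genes tested, 26.3% were higher and 29.7% lower. The median member difference was 1.97 on the log2(FPKM + 1) scale, against -0.03 over all genes. By complex the median difference was 2.51 for II, 2.13 for III, 1.83 for IV and 1.35 for V. All 4 members of complex II and all 9 of complex III were called higher, with 14 of 16 in complex IV and 14 of 17 in complex V. Complex I, whose 37 nuclear subunits were taken as a neighbouring list, had 36 called higher and none lower, with a median of 1.90.

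In complex II, the flavoprotein gene Sdha stood at 741, 604, 670 and 664 FPKM in the 4 BAT vehicle libraries, 118, 108, 127 and 113 in iWAT, 50.6, 93.3, 84.5 and 89.2 in eWAT and 186, 182, 192 and 163 in liver. Sdhb, which encodes the iron-sulfur subunit, stood at 534, 454, 446 and 387 FPKM in BAT, 100.5, 83.4, 85.8 and 84.3 in iWAT, 37.1, 33.0, 47.1 and 51.5 in eWAT and 157, 129, 130 and 114 in liver. For both genes no tissue overlapped another on the deposited scale. Sdhb was among the members with the smallest p in BAT against white fat, with a difference of 2.88 ± 0.13 on the log2 scale (SE, limma adjusted p = 8.3e-11). The membrane anchor genes followed the same order of tissues, with Sdhc at 121 to 159 in BAT and 24.8 to 59.0 in white fat, and Sdhd at 363 to 521 in BAT and 49.1 to 162 in white fat.

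Among complex III genes, Uqcrc2 encodes a core protein of the dimer and was at 370, 354, 353 and 344 FPKM in BAT, 68.4, 67.4, 77.0 and 67.2 in iWAT, 31.4, 51.9, 39.8 and 45.7 in eWAT and 117, 120, 110 and 111 in liver. Its BAT libraries lay close together and far above the rest, and the difference from white fat was 2.70 ± 0.11 (SE, limma adjusted p = 2.7e-11). Uqcrc1, the other core protein, was at 398 to 496 FPKM in BAT, 99.7 to 111 in liver, 88.2 to 105 in iWAT and 28.7 to 48.2 in eWAT. The Rieske iron-sulfur protein gene Uqcrfs1 was at 595 to 834 FPKM in BAT and 252 to 275 in liver, and the cytochrome c1 gene Cyc1 at 374 to 614 and 130 to 155.

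In complex IV, Cox5a and Cox5b, which encode matrix-side subunits of the oxidase, were at 118 to 186 and 313 to 643 FPKM in BAT, and at 26.9 to 36.1 and 114 to 147 in iWAT. Cox7b, another structural subunit, was at 595, 474, 596 and 436 FPKM in BAT, 154, 144, 145 and 149 in iWAT, 78.4, 68.1, 62.4 and 66.0 in eWAT and 213, 213, 171 and 180 in liver. No tissue overlapped another, and BAT exceeded white fat by 2.36 ± 0.11 (SE, limma adjusted p = 1.1e-10). Cox4i2 (0.17, limma adjusted p = 0.50) and Cox6a2 (-0.05, adjusted p = 0.96) were the members of complex IV not called.

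Complex V held the member called lower. The catalytic beta subunit gene Atp5b was at 1986, 1660, 1701 and 1679 FPKM in BAT, 577, 527, 523 and 472 in iWAT, 170, 220, 266 and 292 in eWAT and 368, 371, 365 and 357 in liver. Atp5b thus had BAT highest and iWAT above liver with no overlap, and BAT minus liver was 2.26 ± 0.15 (SE, limma adjusted p = 1.2e-09). The alpha subunit gene Atp5a1 was at 1040 to 1291 FPKM in BAT and 409 to 490 in liver, and the gamma subunit gene Atp5c1 at 305 to 359 and 184 to 203. Atp5j, which encodes coupling factor 6 in the stalk, was at 50.1, 47.0, 51.0 and 44.5 FPKM in BAT, below all iWAT libraries (69.4 to 76.4) and all liver libraries (80.6 to 102). It was at 29.9 to 61.5 FPKM in eWAT, a range that holds the BAT values. Its BAT minus white fat difference was -0.14 ± 0.14 (SE, limma adjusted p = 0.42), and BAT minus liver was -0.86 ± 0.16 (adjusted p = 0.00026). Over the auranofin libraries the first of these was 0.54. Atp5j overlaps Gabpa on the other strand, and the kit kept no strand, so reads of the pair cannot be told apart where they overlap.

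The subunit c gene Atp5g1 was the member called lower in BAT than in white fat, with a log2 difference of -1.36 ± 0.17 (SE, limma adjusted p = 8.1e-06). It was at 2.62, 2.88, 2.92 and 2.88 FPKM in BAT, 10.9, 9.16, 8.10 and 15.6 in iWAT, 8.46, 4.49, 8.51 and 8.49 in eWAT and 64.3, 55.8, 63.5 and 43.6 in liver. BAT was lowest and liver highest, with no overlap of either with another tissue, and BAT minus liver was -3.90 ± 0.20 (adjusted p = 5.5e-11). Atp5g3 had 119, 109, 108 and 85.4 FPKM in BAT and 253, 251, 251 and 202 in liver, a difference of -1.18 ± 0.28 (SE, adjusted p = 0.0015). Against white fat the difference was -0.07 ± 0.24 (adjusted p = 0.82), a mean over unlike depots. Atp5g3 was at 153 to 253 FPKM in iWAT, above all BAT libraries, and at 35.2 to 103 in eWAT, overlapping BAT. The white fat difference of Atp5g3 was 0.10 over the auranofin libraries and between 0.0019 and 0.0345 where single vehicle libraries that turn it were left out. With the skeletal muscle marker level as a covariate, chosen after the data were seen, 41 members were called higher in BAT than white fat and 2 lower, beside 24.8% and 27.9% of all genes in that fit.

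BAT against liver gave 36 members called higher and 3 lower, beside 31.8% higher and 31.4% lower of all genes, with a median of 1.34. The 3 lower were Atp5g1, Atp5g3 and Atp5j, all of complex V. The members with the largest positive differences were Cox8b at 11.82 ± 0.48 and Cox7a1 at 7.25 ± 0.36 (SE, limma adjusted p = 2.9e-12 and 3.5e-11). The value of Cox8b depends on the pseudocount of 1, since liver libraries held 0 to 2 reads of it.

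Liver against white fat depended on the scale. On the deposited scale 36 members were higher and 3 lower (38.0% and 35.9% of all genes), with a median of 0.73. After rescaling each library to a fixed sum per length (TPM) 2 were higher and 18 lower, beside 15.5% and 62.9% of all genes, and the median was -0.25 against -0.75 over all genes. Quantile normalisation gave 7 higher and 9 lower (33.0% and 39.1%), with a median of 0.04. Relative to all genes the member median was above 0 in each of these scalings. Members with the smallest p were Atp5g1 at 2.54 ± 0.17, Uqcrc2 at 1.07 ± 0.11 and Atp5f1, a peripheral stalk gene, at 0.80 ± 0.07 (SE, limma adjusted p = 1.6e-09, 2.0e-07 and 3.3e-08). Atp5f1 turned to -0.18 on the TPM scale. Those lower in liver were Cox8b at -5.60 ± 0.42, Cox4i2 at -2.35 ± 0.20 and Cox6a2 at -1.65 ± 0.68 (adjusted p = 5.3e-09, 2.7e-08 and 0.039), all isoforms with a more common partner.

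Between the white depots, vehicle eWAT had 40 members called lower than iWAT and 0 higher, beside 24.8% and 21.4% of all genes, with a median of -1.19. Atp5f1 (-0.97 ± 0.08), Atp5l, a membrane subunit of ATP synthase (-1.35 ± 0.12), and Cox4i1, the common form of oxidase subunit 4 (-1.48 ± 0.14), had the smallest p (SE, limma adjusted p = 8.5e-07, 1.5e-06 and 1.9e-06). Cox4i1 was at 714, 637, 632 and 622 FPKM in iWAT and 191, 252, 232 and 260 in eWAT, far apart. Cox6b2 was the lone member above 0, at 0.17 ± 0.32 (adjusted p = 0.70), and stood at -0.06 without the third eWAT vehicle library. In the auranofin libraries the same contrast called 0 members in either direction (3.80% of all genes were lower and 6.84% higher), with a median of -0.11. The 9 white adipocyte markers moved with the depot difference: all 9 were lower in eWAT, with a median of -1.37. Macrophage markers were higher in eWAT in 7 of 9 genes (median 2.44), and all 5 mesothelium markers were higher (median 2.05). The part of these lists in the member difference was not tested. On the TPM scale the member median was -0.77, and that of all genes 0.33.

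Isoform shares within a family were then compared, because a share within a library does not depend on library size. Shares were taken of summed FPKM per family and tested with an exact 2-sided permutation test of 4 against 4 libraries, which cannot go below p = 0.0286. Of 48 tissue comparisons in vehicle libraries, 31 reached that smallest exact p and passed the adjustment (Benjamini-Hochberg p = 0.0442). The genes whose shares moved most are shown first by the 250 bases before their start sites, from the RefSeq start-site windows (build GRCm38.p6), each with the partner that carries the family elsewhere. Letters are 5′ to 3′ on the gene's strand. Capitals mark matches, on either strand, to an NRF1-type motif (GCGCA, any base, GCGC), an ETS-type motif (CCGGAAG), the CCAAT box, an Sp1-type motif (GGGCGG), an ERR-type motif (TCAAGGTCA), a YY1-type motif (AANATGGCG) and the TATA box (TATAAA). The windows are chr7:30183921-30184170 (+) for Cox7a1, chr9:79759854-79760103 (-) for Cox7a2, chr7:140900447-140900696 (-) for Cox8b, chr19:7217617-7217866 (-) for Cox8a, chr11:96075632-96075881 (-) for Atp5g1, chr15:102671048-102671297 (-) for Atp5g2 and chr2:73911327-73911576 (-) for Atp5g3.
Cox7a1: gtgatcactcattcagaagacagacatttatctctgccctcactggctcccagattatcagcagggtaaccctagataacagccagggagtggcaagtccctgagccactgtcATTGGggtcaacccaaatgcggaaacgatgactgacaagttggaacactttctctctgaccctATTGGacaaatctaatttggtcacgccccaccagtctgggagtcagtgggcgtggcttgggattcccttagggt
Cox7a2: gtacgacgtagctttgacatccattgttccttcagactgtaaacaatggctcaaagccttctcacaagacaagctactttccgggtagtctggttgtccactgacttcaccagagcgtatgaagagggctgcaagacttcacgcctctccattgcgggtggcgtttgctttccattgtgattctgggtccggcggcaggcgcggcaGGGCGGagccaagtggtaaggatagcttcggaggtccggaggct
Cox8b: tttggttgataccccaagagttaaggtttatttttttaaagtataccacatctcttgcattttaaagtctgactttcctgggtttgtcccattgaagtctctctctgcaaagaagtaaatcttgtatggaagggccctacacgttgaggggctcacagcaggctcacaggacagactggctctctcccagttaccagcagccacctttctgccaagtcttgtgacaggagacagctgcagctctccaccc
Cox8a: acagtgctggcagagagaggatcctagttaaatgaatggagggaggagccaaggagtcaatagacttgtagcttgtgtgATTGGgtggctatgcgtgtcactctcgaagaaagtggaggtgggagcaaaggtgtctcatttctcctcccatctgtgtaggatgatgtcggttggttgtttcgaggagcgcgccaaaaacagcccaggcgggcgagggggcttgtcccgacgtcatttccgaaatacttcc
Atp5g1: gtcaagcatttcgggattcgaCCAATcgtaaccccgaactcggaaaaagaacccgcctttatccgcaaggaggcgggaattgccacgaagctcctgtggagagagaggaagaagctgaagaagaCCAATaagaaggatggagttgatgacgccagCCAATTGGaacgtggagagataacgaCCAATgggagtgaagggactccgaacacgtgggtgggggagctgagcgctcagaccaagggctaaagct
Atp5g2: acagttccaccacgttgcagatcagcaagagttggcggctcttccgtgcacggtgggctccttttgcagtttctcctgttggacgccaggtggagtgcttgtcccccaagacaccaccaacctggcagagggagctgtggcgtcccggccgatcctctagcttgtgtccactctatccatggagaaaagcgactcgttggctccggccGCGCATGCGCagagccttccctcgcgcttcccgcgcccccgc
Atp5g3: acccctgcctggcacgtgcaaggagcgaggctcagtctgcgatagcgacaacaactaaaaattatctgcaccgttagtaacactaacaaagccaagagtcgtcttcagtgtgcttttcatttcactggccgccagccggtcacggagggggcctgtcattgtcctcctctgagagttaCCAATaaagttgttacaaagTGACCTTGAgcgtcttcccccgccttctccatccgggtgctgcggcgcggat

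The BAT-rich genes Cox7a1 and Cox8b did not share a match in these bases: Cox7a1 had 2 CCAAT boxes, first bases at -137 and -74 from the start, and Cox8b had none before its start and a TATAAA just after it, at 4. Their partners held other letters, an Sp1-type match at -44 in Cox7a2 and a CCAAT box at -171 with ETS-type matches at -5 and 32 in Cox8a. Those ETS-type matches run past the bases printed. Atp5g1 held 5 CCAAT matches, of which 2 overlap. Atp5g2 held an NRF1-type match at -42 and an Sp1-type match at -4. The NRF1-type match at -42 was read on both strands because the motif is its own reverse complement there. Atp5g3 held an ERR-type match at -52, a CCAAT box at -72 and an NRF1-type match at 12. The matches at -4 and 12 lie partly or wholly past the bases printed. These are letter matches and not measured binding.

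Over the 36 members found in the RefSeq table (39 windows of 300 bases, 250 before to 50 after the start, 2 of them matched through synonyms), the NRF1-type motif was in 10 windows, or 25.6%, and in 6.38% of the 21263 windows of coding genes. The ETS-type motif was in 12, or 30.8%, against 11.6%. NRF1 and the ETS factor GABP are textbook regulators of respiratory genes. CCAAT was in 53.8% against 38.2%, YY1-type in 7.69% against 3.12%, Sp1-type in 35.9% against 46.2%, ERR-type in 5.13% against 0.334% and TATAAA in 7.69% against 12.6%. TATAAA was in Atp5l, Cox7b2 and Cox8b, and the ERR-type motif in Atp5g3 and Sdhd. Median GC content was 56.3% for members and for coding genes alike. Not matched were Atp5a1, Atp5mpl, Cox4i1, Cox4i2, Cox6a2, Cox6c, Cox8c, Cyc1, Sdhc, Uqcrb, Uqcrc2 and Uqcrq.

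Members were spread over 18 of 22 chromosomes, so they do not form a cluster. A coding gene started within 500 bases on the opposite strand for 11 of the 49 (22.4%), against 8.93% of all 22046 coding genes. Such pairs include Sdhd with Timm8b, an import chaperone gene, 98 bases apart, and Sdha with Ccdc127, 29 bases apart. A gene on the other strand overlapped 14 members (28.6%).

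Cox7a1, the heart and muscle form of subunit 7a, took 73.5 ± 4.11% of its family in BAT, 8.10 ± 2.37% in iWAT, 6.37 ± 3.87% in eWAT and 3.30 ± 0.81% in liver (SD, n = 4 vehicle libraries). Its level was 1487, 1140, 1172 and 674 FPKM in BAT, 19.0, 14.5, 14.4 and 27.0 in iWAT, 4.28, 1.62, 7.63 and 9.16 in eWAT and 5.78, 8.34, 5.78 and 4.79 in liver. The BAT mean was 59.7 times that of iWAT, 197 times that of eWAT and 181 times that of liver. The common form Cox7a2 was also highest in BAT, at 432, 375, 429 and 319 FPKM, with 193 to 223 in iWAT, 171 to 190 in liver and 76.2 to 113 in eWAT. The share in BAT differed from each other tissue (exact permutation p = 0.0286, Benjamini-Hochberg p = 0.0442). Liver and eWAT shares (Benjamini-Hochberg p = 0.274) and eWAT and iWAT shares (0.537) were not separated by the exact test.

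Cox8b, the heart and muscle form of subunit 8, was the member at the highest level in BAT, at 4580, 4211, 4637 and 2357 FPKM. It was at 151, 94.2, 96.9 and 115 FPKM in iWAT, 18.5, 5.21, 47.7 and 46.7 in eWAT and 0, 0.243, 0 and 0 in liver. No tissue overlapped another. Its share of the family was 70.7 ± 1.55% in BAT, 12.2 ± 2.59% in iWAT and 6.70 ± 2.12% in eWAT (SD, n = 4), and all 6 pairs of tissues differed at the smallest p the exact test allows (0.0286). Cox8a, the common form, was at 2095, 1760, 1783 and 944 FPKM in BAT and 504 to 681 in liver.

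Cox6a2, the muscle form of subunit 6a, took at most 1.31% of its family as a group mean in any of the 8 groups, and its level varied between libraries of a tissue. In iWAT it was at 0.948, 3.36, 1.53 and 28.4 FPKM in vehicle and 0.514, 1.33, 1.63 and 14.8 in auranofin libraries. In BAT it was at 0.441, 0.279, 5.70 and 13.3 FPKM in vehicle and 0.125, 60.9, 0.233 and 31.0 in auranofin libraries. The mean log2 level of 15 skeletal muscle markers was highest in the same libraries: 1.07, 1.04, 0.90 and 5.31 in iWAT vehicle, 1.36, 0.93, 0.95 and 4.76 in iWAT auranofin, 2.03, 0.56, 3.45 and 4.63 in BAT vehicle, and 0.57, 6.35, 0.61 and 5.18 in BAT auranofin libraries. Their part in Cox6a2 was not tested. Cox4i2, the hypoxia-linked form of subunit 4, took 1.08 ± 0.30% in iWAT, 1.64 ± 0.48% in eWAT, 0.52 ± 0.11% in BAT and 0.0444 ± 0.0590% in liver, and Cox6b2, a form known from testis, had group means of 0.114% to 0.889% by the deposited length. By principal transcript length the vehicle shares of Cox4i2 were 0.566%, 0.862%, 0.269% and 0.0232% in that order, and Cox6b2 reached 1.32% in eWAT vehicle and 1.83% in eWAT auranofin libraries. Their common partners were abundant in vehicle libraries: Cox6a1 was at 1646 to 2597 FPKM in BAT, 754 to 849 in liver, 715 to 989 in iWAT and 110 to 452 in eWAT, and Cox6b1 at 856 to 1415, 307 to 408, 435 to 529 and 102 to 223.

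**Figure D2:**
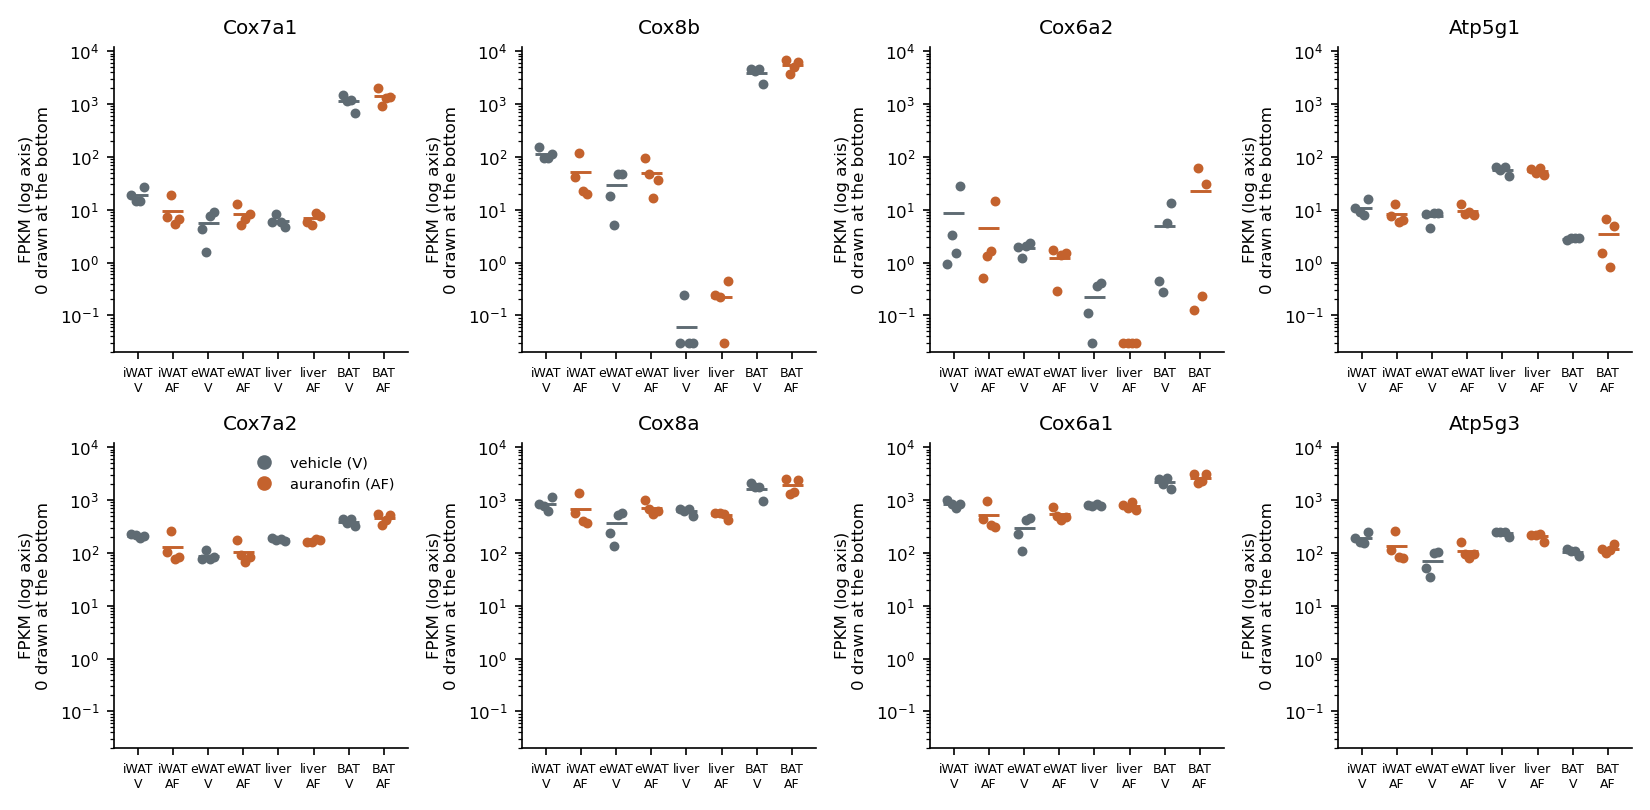
FPKM on a log axis (y axis) of 8 isoform genes in each tissue and treatment (x axis). Points are libraries and lines are means of 4. Values of 0 are drawn at 0.03. The upper row holds Cox7a1 and Cox8b, highest in BAT, with Cox6a2 and with Atp5g1, which is found in every tissue and highest in liver. The lower row holds their common partners, which span a narrower range.

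For subunit c, Atp5g1 took 16.1 ± 1.32% of the family in liver, 7.53 ± 1.69% in eWAT, 4.48 ± 0.39% in iWAT and 1.67 ± 0.31% in BAT (SD, n = 4), and every pair of tissues differed at the smallest exact p. Those are vehicle libraries. In BAT auranofin libraries the Atp5g1 share was 0.766%, 4.09%, 0.448% and 2.11%. It was highest in libraries 2 and 4, those of the group with the most skeletal muscle marker message, whose part was not tested. Atp5g2 took 37.3 ± 1.78% in BAT, 25.5 ± 8.53% in eWAT, 17.3 ± 2.43% in iWAT and 15.6 ± 1.63% in liver. Atp5g3 was the main form everywhere, from 78.2 ± 2.08% in iWAT to 61.0 ± 1.59% in BAT, and eWAT did not separate from liver or BAT. The deposited length of a gene counts all its exons, 4912 bases for Atp5g1 against 596 in its shortest principal transcript, so its FPKM is low for its message number. By principal transcript length, an alternative added after the data were seen, Atp5g1 took 33.1 ± 2.23% in liver and 4.02 ± 0.75% in BAT. Atp5g3 BAT minus liver then turned from -7.23 to 2.48 percentage points.

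The sum of the 3 subunit c genes, set against Atp5b as a ratio chosen after the values were seen, was 95.9 ± 8.38% of the Atp5b level in liver vehicle libraries, 46.5 ± 13.1% in iWAT, 44.8 ± 15.3% in eWAT and 9.84 ± 1.08% in BAT (SD, n = 4). By principal transcript length these values were 174%, 71.8%, 73.6% and 15.2%. By either length BAT had the lowest ratio, and iWAT and eWAT overlapped.

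Auranofin against vehicle called no member in any tissue. In iWAT, 0 of 46 members were called, beside 0.0% of 13164 genes, and 26 had an unadjusted p under 0.05 in limma. Of all 13164 genes, 1207 were higher and 1688 lower at that unadjusted level. Of the 46 differences 45 were below 0, with a median of -0.70 (all genes -0.02), and by complex the median was -0.44 for II, -0.73 for III, -0.78 for IV and -0.68 for V. No member had non-overlapping groups, where 2.41% of all genes were lower and 2.77% higher without overlap. Cox6b2 was the lone member above 0, at 0.11.

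Cox4i1 in iWAT was at 714, 637, 632 and 622 FPKM in vehicle and 291, 692, 239 and 241 in auranofin libraries. The second auranofin library lay among the vehicle libraries and the other 3 lay below all of them, with a difference of -0.98 ± 0.32 (SE, limma adjusted p = 0.204). Cox8b had the largest difference, -1.52 ± 0.50, from 151, 94.2, 96.9 and 115 FPKM to 41.0, 120, 22.3 and 19.4. The same library was again high. Atp5j2, a membrane subunit of ATP synthase, was at 110, 90.8, 95.0 and 67.6 FPKM in vehicle and 43.2, 80.8, 33.7 and 34.3 in auranofin libraries (-0.98 ± 0.28). Atp5h, a peripheral stalk subunit, went from 246, 199, 201 and 156 FPKM to 105, 181, 89.4 and 95.5 (-0.80 ± 0.24). In complex III the smallest p were those of Uqcrb and the hinge protein gene Uqcrh, at -0.77 ± 0.25 and -0.94 ± 0.32, and in complex II those of Sdhb (-0.69 ± 0.26) and Sdhd (-0.48 ± 0.25). Limma's adjusted p was 0.204 for each but Sdhd, at 0.270.

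Over the 46 members the mean log2 level was 6.47 to 6.75 in iWAT vehicle libraries and 5.86, 6.79, 5.55 and 5.58 in auranofin libraries 1 to 4. Without auranofin library 2, limma called 42 members lower and 0 higher, with a median of -1.02, beside 21.3% of all genes lower and 15.1% higher. With sample quality weights 43 were lower (26.3% of all genes lower, 20.0% higher), and 1 fit of all 32 libraries called 6 lower (1.72% lower, 0.853% higher): Atp5c1, Atp5j2, Atp5l, Cox4i1, Cox7b and Uqcrh. Other measures moved with the same 3 auranofin libraries. The 9 white adipocyte markers had a mean log2 level of 9.77 to 10.09 in vehicle and 9.47, 10.01, 9.34 and 9.39 in auranofin libraries, and their summed FPKM was 13181 to 15623 and 8860 to 16068. All 9 were below 0 in the comparison, with a median of -0.35, 0 were called and none was at 0. The 7 endothelial markers had a mean log2 level of 3.44 to 3.78 in vehicle and 4.31, 3.32, 4.56 and 4.21 in auranofin libraries, high in the same 3. All 7 were above 0, with a median of 0.46, 0 were called and none was at 0. Their summed FPKM was 94.9 to 128 and 86.7 to 228. Nuclear ribosomal RNA took 0.0684% to 0.121% of reads in vehicle libraries and 0.247%, 0.0847%, 0.240% and 0.229% in auranofin libraries. The library size behind the FPKM, over the reads in genes, was 1.05 to 1.11 in vehicle libraries. It was 1.31, 1.02, 1.33 and 1.29 in auranofin libraries, and a larger ratio lowers the FPKM. The part of these in the member differences was not tested. Members are short genes, with a median length of 1631 bases against 3863 over all genes tested in iWAT, and removing a trend on gene length left a median of -0.51. On the TPM scale the median was -0.42, while that of all genes was 0.24, and after quantile normalisation it was -0.35, with all genes at 0.00.

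In eWAT the differences ran the other way, and 0 of 46 members were called, beside 0.0% of 13847 genes. At an unadjusted p under 0.05 in limma stood 4 members, where 736 of all 13847 genes were higher and 849 lower. Above 0 were 43 of 46, with a median of 0.37 against 0.00 over all genes. Below 0 were Cox6a2 (-0.41), Uqcrb (-0.22) and Atp5h (-0.03). No member had non-overlapping groups, where 3.0% of all genes were higher and 3.95% lower without overlap.

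Cox8a in eWAT was at 240, 138, 511 and 578 FPKM in vehicle and 983, 669, 538 and 617 in auranofin libraries, a difference of 1.12 ± 0.46 (SE, limma adjusted p = 0.429). Vehicle libraries 1 and 2 were low and auranofin library 1 was high. Atp5k, which encodes subunit e of ATP synthase, was at 30.8, 6.17, 67.4 and 75.3 FPKM in vehicle and 124, 75.0, 65.5 and 77.1 in auranofin libraries, and had the largest difference at 1.34 ± 0.67 (adjusted p = 0.432). Uqcr11, a small complex III subunit, went from 69.97, 33.7, 158 and 186 FPKM to 349, 184, 163 and 202 (1.22 ± 0.52, adjusted p = 0.429). Cox6a1 (1.00 ± 0.44), Atp5e, the epsilon subunit (0.92 ± 0.41), Uqcr10 (0.73 ± 0.37), Sdhb (0.42 ± 0.24) and Sdhc (0.39 ± 0.21) had adjusted p between 0.429 and 0.440.

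The eWAT differences rested on those libraries. Without vehicle libraries 1 and 2 the median was 0.17, without auranofin library 1 it was 0.19, and with sample quality weights it was 0.03, with 0 called in each. On the TPM scale the median was 0.21, with 36 of 46 above 0, and that of all genes -0.12. The fit of all 32 libraries also called 0 members in eWAT, beside 2.75% of all genes higher and 4.24% lower. White adipocyte markers had a mean log2 level of 7.59, 8.12, 8.74 and 8.88 in vehicle and 9.54, 9.41, 8.83 and 8.87 in auranofin libraries (summed FPKM 3084 to 7163 and 6744 to 13071). They had 8 of 9 above 0, a median of 0.74, 0 called and none at 0. Macrophage markers went the other way, with summed FPKM of 1273 to 3171 in vehicle and 624 to 1621 in auranofin libraries, 7 of 8 tested below 0 and none of the 9 at 0. Their part was not tested.

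**Figure D3:**
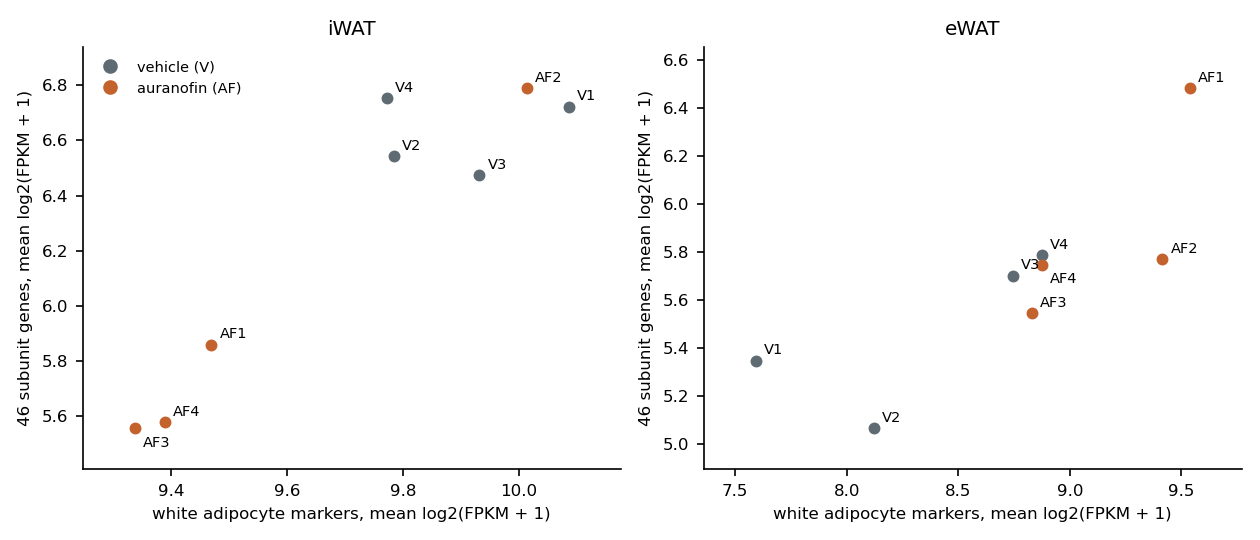
Mean log2(FPKM + 1) of the 46 tested subunit genes (y axis) against that of 9 white adipocyte markers (x axis) for each iWAT and eWAT library, labelled by treatment and number. In iWAT, auranofin libraries 1, 3 and 4 are low on both axes and library 2 sits near the vehicle libraries, slightly above them on the y axis. In eWAT, vehicle libraries 1 and 2 are low on both and auranofin library 1 is highest on both.

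Differences in liver were the smallest of the 4 tissues. Called were 0 of 43, beside 0.0% of 13122 genes. An unadjusted p under 0.05 in limma was reached by 0 members, where 328 of all 13122 genes were higher and 465 lower. Member differences ran from -0.23 to 0.22 with a median of -0.05, and 27 of 43 were below 0. No member had non-overlapping groups, against 1.52% of all genes higher and 2.2% lower without overlap. Atp5a1, with the smallest p in complex V, was at 490, 477, 462 and 409 FPKM in vehicle and 396, 446, 414 and 343 in auranofin libraries (-0.20 ± 0.10, SE, adjusted p = 0.790). Sdha went from 186, 182, 192 and 163 FPKM to 166, 179, 153 and 138 (-0.19 ± 0.10, adjusted p = 0.790). Sdhd (-0.14 ± 0.07), Uqcrc2 (-0.18 ± 0.10), Uqcrfs1 (-0.12 ± 0.10), Cox7a2l (-0.14 ± 0.08), Cox8a (-0.22 ± 0.13) and Atp5g3 (-0.23 ± 0.12) had limma adjusted p from 0.790 to 0.850.

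In BAT, 0 of 46 members were called, beside 0.0% of 13067 genes higher and 0.023% lower. An unadjusted p under 0.05 in limma was reached by 2 members, where 609 of all 13067 genes were higher and 850 lower. Above 0 were 45 of 46, with a median of 0.24 against 0.02 over all genes. On the TPM scale the median was 0.10 and after quantile normalisation 0.09, with 38 and 37 members above 0. It was 0.10 without vehicle library 4, with 37 of 46 above 0, and 0.16 without auranofin library 1. Atp5j and Atp5s had non-overlapping groups, both higher, beside 2.28% of all genes higher and 3.05% lower without overlap.

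Atp5j in BAT was at 50.1, 47.0, 51.0 and 44.5 FPKM in vehicle and 80.8, 53.5, 60.7 and 60.2 in auranofin libraries (0.38 ± 0.13, SE, limma adjusted p = 0.334). Atp5s, named for coupling factor B, was low throughout, at 7.20, 5.67, 6.21 and 6.41 FPKM and then 9.04, 7.89, 7.53 and 7.93 (0.30 ± 0.09, adjusted p = 0.293). Cox8b went from 4580, 4211, 4637 and 2357 FPKM to 6804, 3704, 4943 and 6146, with overlapping groups (0.47 ± 0.28, adjusted p = 0.565). Cox7b and Uqcrb (both 0.29), Uqcr10 (0.28 ± 0.24), Sdhc (0.18 ± 0.13) and Sdhb (0.17 ± 0.14) overlapped too, and Sdhb was at -0.02 after quantile normalisation. Skeletal muscle markers in BAT had a summed FPKM of 37.9 to 794 in vehicle and 51.2 to 3117 in auranofin libraries, none was at 0, and 14 of 14 tested were above 0 with 0 called. With their level as a covariate, added after the data were seen, the member median was 0.25 and 0 were called. Brown adipocyte markers had a summed FPKM of 3174 to 4635 in vehicle and 3983 to 6742 in auranofin libraries, with 7 of 8 above 0, a median of 0.38, 0 called and none at 0. Macrophage markers had a summed FPKM of 116 to 240 and 56.5 to 141, with 7 of 8 tested below 0, a median of -0.80 and 0 called. Of the 9 listed, Clec4f was at 0 throughout. The part of both lists in the BAT differences was not tested.

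**Figure D4:**
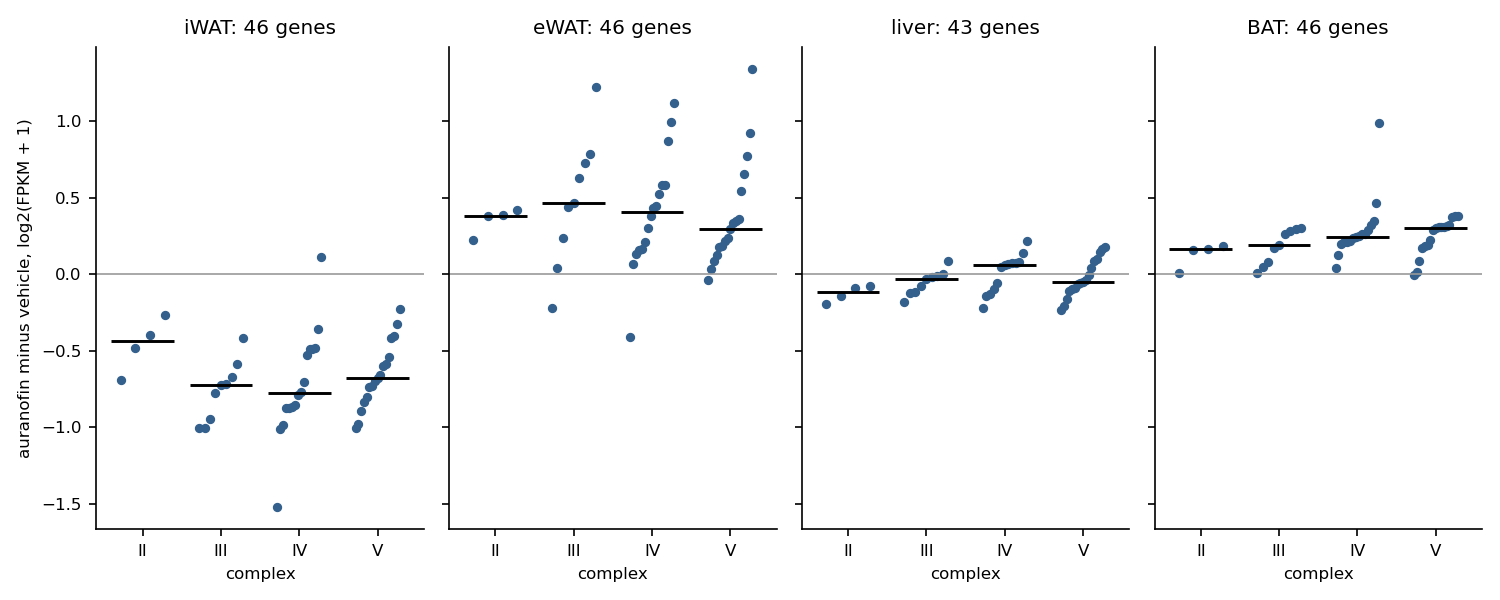
Auranofin minus vehicle difference on the log2(FPKM + 1) scale (y axis) of each tested gene by complex (x axis) in the 4 tissues. Points are genes, black lines are medians and the grey line is 0. In iWAT 45 of 46 genes lie below 0, in eWAT 43 of 46 and in BAT 45 of 46 lie above it, and in liver 27 of 43 lie below, none of them past the adjusted threshold.

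The auranofin differences of 2 tissues were then set against each other with an interaction term. For eWAT minus iWAT all 46 members were above 0, with a median of 1.04 (all genes -0.01). Limma called 0 members, beside 0.0% of 13670 genes. The smallest p were those of Cox6a1 (1.87 ± 0.58), Uqcr10 (1.73 ± 0.54) and Cox4i1 (1.36 ± 0.44), each with an adjusted p of 0.177. Without iWAT auranofin library 2, limma called 34 higher, beside 9.42% of all genes higher and 5.42% lower. The count was 41 when libraries were weighted by quality, beside 16.4% of all genes above and 13.5% below, and 21 when the 32 libraries were fitted as 1 model, where the background was 5.86% and 3.9%. The median was lower by other scalings, 0.66 after quantile normalisation and 0.61 on the TPM scale.

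For BAT minus iWAT the 46 members were likewise above 0, with a median of 0.98 (all genes 0.01). Limma called 0 members, beside 0.0% of 13372 genes higher and 0.0224% lower. Complex V genes had the smallest p: Atp5j2 (1.29 ± 0.33, adjusted p = 0.106), Atp5j (1.06 ± 0.28) and Atp5h (1.09 ± 0.29, both adjusted p = 0.107). Without iWAT auranofin library 2 limma called 39 (16.0% of all genes higher, 11.3% lower), with quality weights 39 (18.5% higher, 14.5% lower), and without BAT auranofin library 2 it called 3 higher, Atp5h, Atp5j2 and Atp5l, where 0.794% of all genes were higher and 1.7% lower. The median was 0.50 after quantile normalisation, with 42 members above 0, and 0.56 on the TPM scale, with 44. Both interactions share the iWAT libraries.

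Isoform shares under auranofin were compared in 32 exact permutation tests, of which 3 reached the smallest p of 0.0286 and none passed adjustment (Benjamini-Hochberg p = 0.305). The Cox8b share in iWAT was 12.2 ± 2.59% in vehicle and 6.20 ± 1.42% in auranofin libraries (SD, n = 4). Library values were 15.1%, 10.9%, 13.4% and 9.32% against 6.67%, 8.001%, 5.21% and 4.93%. Auranofin library 2 lay below all vehicle libraries here but was again the highest of its group. It stood about midway between the next auranofin library and the lowest vehicle library. The Cox6a2 share in eWAT went from 0.734 ± 0.285% to 0.232 ± 0.121%, and the Atp5g3 share in liver from 68.2 ± 1.02% to 64.8 ± 2.37%. In BAT the Cox8b share was 70.7 ± 1.55% and 74.1 ± 2.40% (exact permutation p = 0.0571).

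Genes around the complexes were read from lists. The 6 subunits of complexes III to V that mitochondrial DNA encodes had 0 called under auranofin in each tissue. Medians for iWAT, eWAT, liver and BAT were -1.28, -0.12, -0.07 and 0.31. In iWAT mt-Co1 went from a mean of 13998 FPKM in vehicle to 10374 FPKM in auranofin libraries, and mt-Cytb from 10524 to 7349. The iWAT vehicle means of mt-Co2, mt-Atp6, mt-Co3 and mt-Atp8 were far lower, at 201, 247, 132 and 21.3 FPKM. Their auranofin means were 79.0, 74.0, 57.6 and 9.35 FPKM, so the iWAT median rested on genes with low recorded levels. In BAT against white fat all 6 were called higher, beside 26.3% of all genes, with a median of 2.24. The smallest p was that of mt-Cytb of complex III, at 2.38 ± 0.17 (SE, limma adjusted p = 1.7e-08).

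Of 39 assembly factors, which insert cofactors and build the complexes, 37 were tested and 0 were called under auranofin in any tissue. Their medians for the tissues in that order were -0.35, 0.19, -0.08 and 0.19. The smallest p in iWAT belonged to the oxidase factor Cmc1 (-0.78 ± 0.23) and the succinate dehydrogenase factor Sdhaf2 (-0.40 ± 0.12), both with a limma adjusted p of 0.204, and in BAT to the oxidase factor Cox20 (0.58 ± 0.12, adjusted p = 0.212). In BAT against white fat 28 of 37 were called higher and 0 lower, beside 26.3% and 29.7% of all genes. The median was 0.76, led by Coa5 (1.80 ± 0.08) and the complex III factor Uqcc1 (1.78 ± 0.10). Their median lay below that of the subunits, a description with no test.

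Carriers and regulators beside the complexes had 10 genes tested of 13 listed and 0 called under auranofin. The ATP synthase factor Usmg5 (-1.03 ± 0.35) and its inhibitor Atpif1 (-0.51 ± 0.18) had the smallest p in iWAT (limma adjusted p = 0.204). Between tissues, cytochrome c (Cycs) was higher in BAT than white fat by 2.17 ± 0.15, and the adenine nucleotide carrier Slc25a4 was higher in BAT than liver by 5.66 ± 0.19 (SE, limma adjusted p = 1.1e-08 and 2.0e-13). Regulators of mitochondrial gene expression had 0 called under auranofin, with medians of -0.02, 0.03, -0.02 and 0.10 in the same order. In BAT against white fat 12 of 15 were called higher and 0 lower, beside 26.3% and 29.7% of all genes. The coactivators Ppargc1b (3.04 ± 0.14) and Ppargc1a (2.40 ± 0.12) led them. Complex I had medians of -0.73, 0.43, -0.03 and 0.25 under auranofin in iWAT, eWAT, liver and BAT, and 77 mitochondrial ribosomal protein genes had -0.52, 0.25, -0.03 and 0.20, all with 0 called.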

How the data were processed

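RNA sequencing of 32 libraries was read at the gene level. Values are FPKM as deposited by the authors for 54532 genes: reads per gene over gene length and over a library size. Among tools, the notes of the submitters list DESeq2 1.20.0, featureCounts 1.5.0-p3, STAR 2.6.1d and CASAVA, and as build mm10, with no role for each. Low values of a library are whole multiples of one step once gene length is taken out, within 0.1 read, so reads were rebuilt. The library size behind the FPKM was 0.694 to 1.41 times the sum of these reads. Gene length was the union of all exons for 47 of the 49 members.

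Treatment was fitted within each tissue, and tissues were compared in the vehicle libraries. The model was limma 3.58.1 (R 4.3.3, intensity trend) on values logged to base 2 after a pseudocount of 1, which understates changes of low genes. A gene was tested where its mean over the libraries fitted was at least 0.5 FPKM, and the Benjamini-Hochberg threshold was 0.05 over all genes tested. Shares of isoform families were tested with exact permutation tests (Python 3.11.15, scipy 1.17.1). The fits were tested on simulated data. Figures used matplotlib 3.10.9.

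In each treatment comparison the 2 members of each complex with the smallest p are named, and in each interaction and tissue contrast up to 3 per direction. Genes with an isoform partner and core subunits are given by level, and listed pathway genes by smallest p. The members and the gene lists were chosen with earlier results of these data known. Alternatives were a pseudocount of 0.1, a filter of 1 or none, TPM and quantile scaling, sample quality weights, voom on the rebuilt reads, removal of a length trend, a replicate block, 1 fit of all libraries, the auranofin libraries for tissue contrasts and leaving out libraries. The muscle covariate outside iWAT and the principal transcript length were added after seeing the data. Libraries that share a number were not paired. No protein sequence was used here.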

Additional observations from a re-analysis of the deposited data

Results flagged for a closer look

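A library is named here when its gap to the nearest of the other 3 in its group, over the range of the group, exceeded the critical value of Dixon's test for 4 values. Of 160 groups of values tested, 12 did so, and chance gives about 1 in 20. In iWAT the first vehicle library had the highest Sdhb (100.5 FPKM) and Cox4i1 (714 FPKM) of its group, and auranofin library 2 had Cox4i1 at 692 FPKM against 239 to 291 in the other 3. In eWAT the first auranofin library had Atp5e at 140 FPKM. In liver the fourth auranofin library had Cox8a at 422 FPKM and the fourth vehicle library had Atp5g3 at 202 FPKM, both the lowest of their group.

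Shares of isoform families gave the other 6. The Cox6a2 share was 3.29% in the fourth iWAT vehicle library and 4.49% in the fourth iWAT auranofin library, the 2 iWAT libraries with the most skeletal muscle marker message. The fourth iWAT vehicle library also had Atp5g2 at 13.7% and Atp5g3 at 81.3% of the subunit c family. The first eWAT vehicle library had Atp5g3 at 53.2%. Cox8b took 0.0400% of its family in the second liver vehicle library, where the others were at 0.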

How the results depend on the processing

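With 4 libraries a group, the lack of calls in iWAT treatment turned on 1 library. For iWAT treatment the number of members called was 43 with sample quality weights, 6 in 1 fit of all libraries and 0 to 42 when 1 library was left out. The 42 came without auranofin library 2. For the eWAT minus iWAT difference in change it was 41, 21 and 0 to 34, and for BAT minus iWAT 39 with weights and 0 to 39 with 1 library left out. The shares of all genes called in these fits stand with the results above. For liver against white fat, 20 members were called on the TPM scale and 16 after quantile normalisation, with the lower ones in the majority, against 39 on the deposited scale. Of all genes, 15.5% were higher and 62.9% lower on the TPM scale, and 33.0% and 39.1% after quantile normalisation. The TPM median over members was -0.25. The eWAT minus iWAT contrast called 0 in the auranofin libraries, with a median of -0.11. Signs turned for Sdhb in BAT treatment (-0.0215 after quantile normalisation), Atp5f1 in liver against white fat (-0.18 on the TPM scale), Cox6b2 in eWAT minus iWAT (-0.0634 to 0.4598 with 1 library left out), the Atp5g3 share in BAT minus liver (2.48 by principal transcript length), and, in BAT against white fat, Atp5j (0.54) and Atp5g3 (0.10) over the auranofin libraries and Atp5g3 (-0.2178 to 0.0345) with 1 library left out. The cause was not tested. Voom called 0 members in every treatment and interaction comparison. A replicate block also gave 0 in those. In BAT against white fat, liver against white fat, BAT against liver and eWAT against iWAT it changed no count by over 1.5 times. Same-numbered vehicle and auranofin libraries correlated between -0.21 and 0.39, and same-numbered libraries of different tissues between -0.34 and 0.28, so the numbers were not taken as pairs. The labels do not say whether the same animals gave several tissues. Outside the replicate block, the fits across tissues took libraries as independent. The TPM scale moved the median of all genes to 0.24 in iWAT treatment, -0.12 in eWAT treatment, -0.48, -0.75, 0.28 and 0.33 in the tissue contrasts in the order above, and -0.38 and -0.35 in the interactions. Leaving 1 library out of an isoform comparison gave values without a test.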
